A study of Micropterus salmoides with 6 samples.

Results

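Semaphorins, plexins and the other classical axon guidance genes were followed in the intestine of largemouth bass (Micropterus salmoides) held at 26 °C or moved to 34 °C. The genes were chosen by symbol. The gene table was searched for symbols of semaphorins of classes 3 to 7, plexins, neuropilins 1 and 2, slits, robos, netrins, UNC5 receptors and DCC, ephrins, Eph receptors, and collapsin response mediators (CRMP and DPYSL). The search found 78 of the 35854 genes analysed, and all 78 are protein coding in the RefSeq gene table of assembly ASM1485139v1. They are 24 semaphorins, 10 plexins, 2 neuropilins, 3 slits, 4 robos, 5 netrins, 6 genes of the UNC5 and DCC group, 9 ephrins, 11 Eph receptors and 4 genes of the CRMP and DPYSL group. Among the 78, unc50 matched through its letters alone, since UNC-50 is a Golgi protein and not a netrin receptor, and its values are given apart. The family was proposed for study after the heat comparison of these same libraries had been seen. Counts of members in that comparison are therefore a description of the family and test nothing about it, and the adjusted p-values given below are those of single genes in a fit over the whole table.

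The control group was fish kept at 26 °C and the heat group was fish kept at 34 °C for 9 h, in the same rearing system and after acclimation at 26 °C. Each group had 3 libraries of total intestinal RNA, and each library pooled the intestines of 3 fish from the same parallel in equal parts. There were thus 3 pools at each temperature, and single fish were not measured. Strain, sex and age are not given in the sources used here, and no agent other than temperature separated the groups. Intestine was taken whole, so a lower value can stand for fewer cells of a type or for less RNA per cell, and these cannot be told apart.

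Library totals ran from 8.24 M counts (heat pool 1) to 28.8 M (control pool 1), and 11894 to 41962 of these fell on the 78 genes. Control pool 1 stood apart from its group: across tested genes its log values correlated at 0.875 and 0.853 with the other 2 controls, which correlated at 0.932 with each other. Transcripts of the deposited lncRNA table held 9.93% of all TPM in control pool 1 and 41.2% in heat pool 1, against 21.3% to 26.8% in the other 4 pools. For this reason CPM (counts scaled to 1e+06 on TMM-scaled library sizes) were used to compare a gene between pools, and TPM, which also divides by transcript length, was used to compare levels between genes. Among all 20326 tested genes, 120 passed the threshold as higher at 34 °C and 80 as lower, at an adjusted p under 0.05 in edgeR's quasi-likelihood test, and the median log2 fold change was -0.12.

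Axon guidance genes encode the cues and receptors that steer growing nerve fibres, and many also act outside the nervous system, on vessels, epithelia, muscle and immune cells. Semaphorins signal through plexins, with neuropilins as co-receptors for most secreted class 3 members, while slits bind robo receptors and netrins bind DCC and the UNC5 receptors. Ephrins and Eph receptors are both held on cell surfaces and signal into both cells at a contact. CRMP and DPYSL proteins are cytoplasmic and couple semaphorin signals to microtubules. In the gut of mammals, netrin and DCC attract neural crest cells and vagal axons, semaphorin 3A restrains the entry of extrinsic axons, and Eph and ephrin contacts order cells along the intestinal epithelium.

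The 78 genes covered a wide range of levels, from 0.00507 TPM (efna2a) to 53.8 TPM (ntn4) as a mean over the 6 pools. By the same mean, 19 were at 10 or above, 40 were between 1 and 10, and 19 were below 1. No member was at 0 in every pool. The highest levels belonged to the secreted netrin ntn4 (53.8 TPM), the membrane-anchored ephrin efna1b (53.4 TPM), the transmembrane semaphorin sema6dl (51.4 TPM) and the secreted netrin ntn1a (50.6 TPM). Across the 6 pools their lowest and highest TPM were 38.9 and 67.8 (ntn4), 22.6 and 98.3 (efna1b), 21.6 and 70.5 (sema6dl) and 30.9 and 73.5 (ntn1a). These ranges overlap, so the order among these 4 is not settled by the data. The Eph receptor epha4l followed at 34.2 TPM, then the plexins plxna1b (28.6), plxnb2b (27.0) and plxnb2a.1 (26.0), and the semaphorin sema4ga (21.7). Receptors below 1 TPM were ephb6 at 0.963 TPM, dcc at 0.737, ephb2b at 0.655, unc5c at 0.423, unc5db at 0.402, ephb3a at 0.293, unc5b at 0.0597 and epha8 at 0.0159. The netrin receptor gene dcc was thus far below the netrins ntn4, ntn1a and ntn2 (9.37 TPM) and above ntn1b (0.384) and ntn5 (0.00916).

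**Figure D1:**
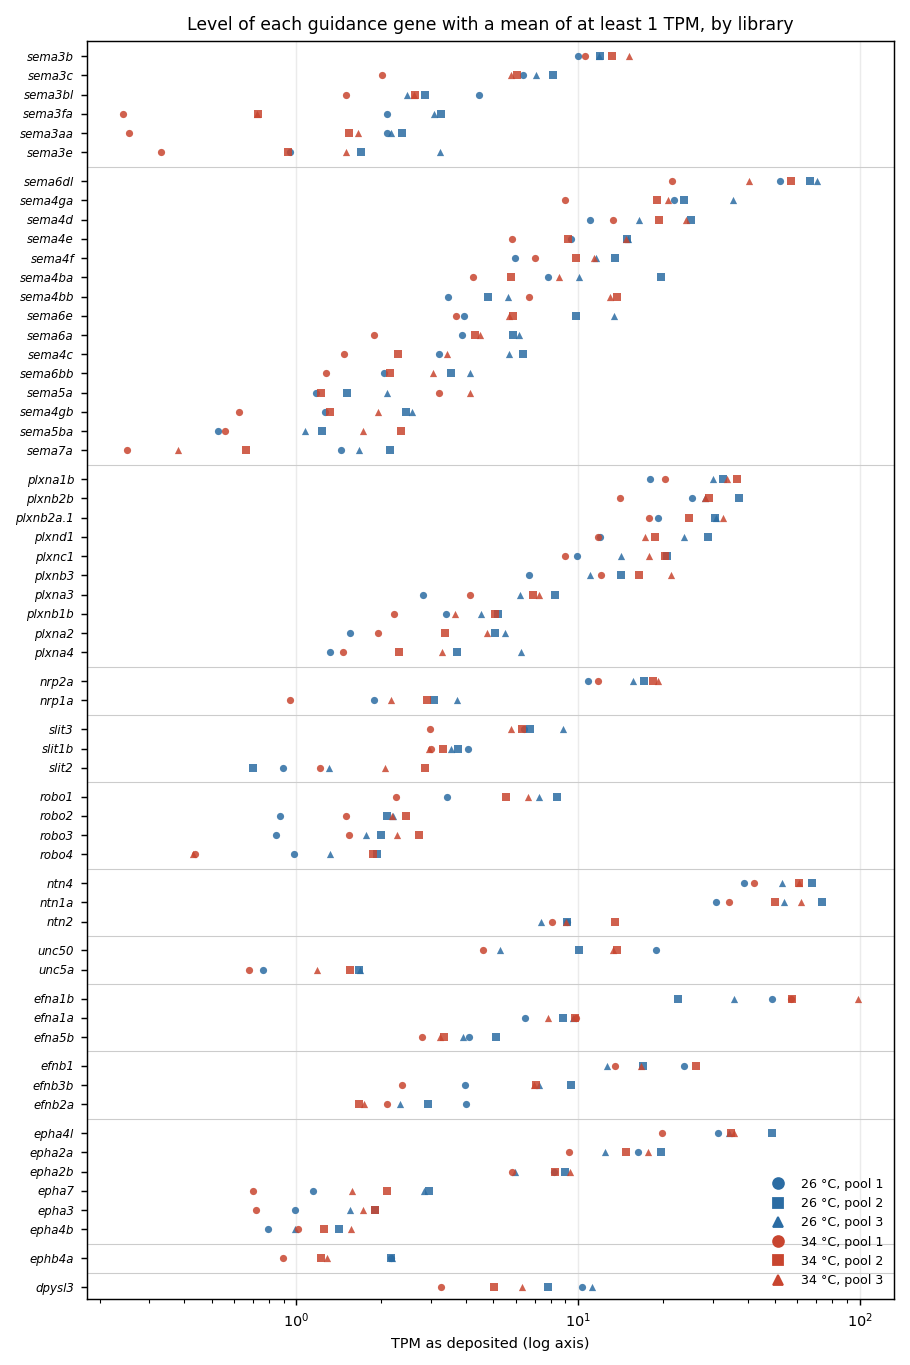
Deposited level (TPM, log axis) of each guidance gene with a mean of at least 1 TPM, with 1 point per pool (blue, 26 °C; red, 34 °C) and genes ordered by mean level within families. The netrins ntn4 and ntn1a, the ephrin efna1b and the semaphorin sema6dl have the highest means, between 50.6 and 53.8 TPM, and their points overlap.

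Compared with all tested genes, the tested members lay in longer genes and were less abundant. Their gene span had a median of 60.8 kb, against 10.2 kb over all 20326 tested genes, and their median level was 3.74 TPM against 9.83 TPM. The 7 genes whose total over the 6 pools was 2 to 33 reads did not pass the count filter: crmp1, efna2a, efna3a, epha8, ntn5, sema3d and unc5b. The other 71 were tested.

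At 34 °C, 1 of the 71 tested members passed the threshold as lower and 0 as higher (edgeR), where 0.394% of all tested genes passed as lower and 0.59% as higher. The gene that fell was sema3fa. At an unadjusted p under 0.05, 10 members were lower (14.1%, against 9.78% of all tested genes) and 3 were higher (4.23%, against 6.86%). All 3 heat pools lay below all 3 controls in 20 tested members (28.2%), against 14.4% of all tested genes. They lay above all controls in 5 members (7.04%), against 11.5%. The fitted log2 fold change was below 0 in 53 of the 71 (74.6%, against 57.9% of all tested genes), with a median of -0.42, and of -0.43 without unc50. Since the family was proposed with these values in view, nothing is read from these shares.

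The count of calls moved with the libraries and with the test. Without control pool 1, 6 members passed as lower (plxnd1, sema3fa, sema4ba, sema4c, sema6e and sema7a) and 1 as higher (sema4bb), where 4.11% and 4.61% of all tested genes passed. Leaving out any one of the other 5 pools left 0 members past the threshold, in fits that called at most 10 genes of the whole table. DESeq2 called sema3fa, sema4c and sema7a lower and sema4bb higher, where it called 3.68% of all genes lower and 3.38% higher. A voom fit with sample quality weights, chosen after seeing the data, called sema3fa, sema4ba, sema4c, sema6e and sema7a lower and efna1b and sema4bb higher, where it called 5.47% of all genes lower and 4.75% higher.

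**Figure D2:**
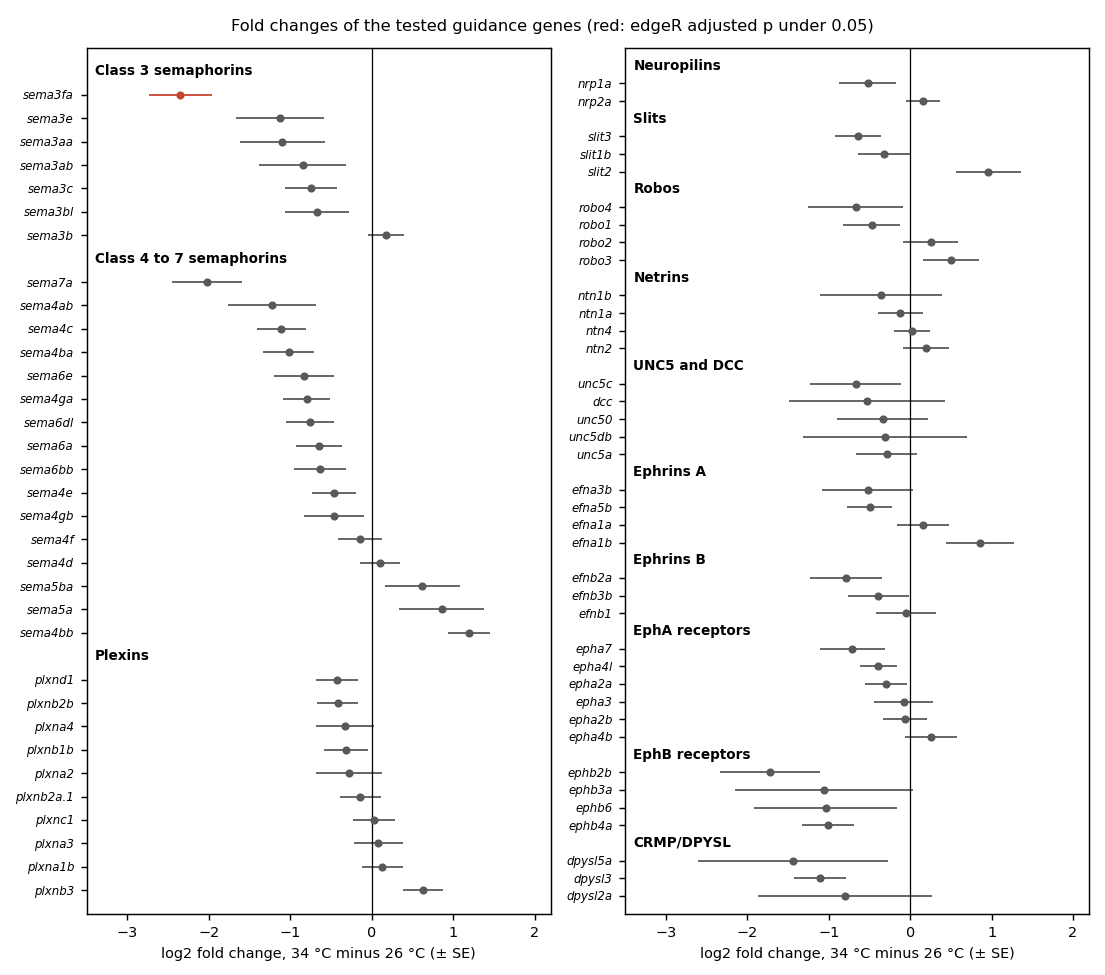
Log2 fold change (heat minus control, edgeR) with its standard error for the 71 tested genes, grouped by family, with a line at 0. The red marker is sema3fa (-2.35), the gene past the adjusted threshold, and most semaphorins lie left of 0 while sema4bb lies at 1.19.

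By role, the 37 tested ligands had a median log2 fold change of -0.50, with 27 below 0, and the 30 tested receptors a median of -0.32, with 22 below 0. The 23 tested semaphorins had a median of -0.75. In 12 of them the heat pools lay wholly below the controls (14.4% of all tested genes did), and in 1, sema4bb, wholly above (11.5% of all tested genes did). The 17 tested ephrins and Eph receptors had a median of -0.39, with 14 below 0.

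Class 3 semaphorins are secreted cues, most of them repulsive. SEMA3F signals through neuropilin 2 and plexin A receptors, and in mammals it repels axons and restrains vessel growth. CPM of sema3fa was 6.01, 6.45 and 7.16 in the control pools and 0.779, 1.49 and 1.48 in the heat pools. The groups were far apart and the 3 controls lay close together. The means were 6.54 ± 0.584 CPM (SD, n = 3) at 26 °C and 1.25 ± 0.405 CPM (SD, n = 3) at 34 °C, a 5.24-fold lower mean, and the fitted log2 fold change was -2.35 with a standard error of 0.39 (edgeR adjusted p = 0.0446). The reads behind the heat values were few: 6, 25 and 23, against 140, 100 and 87 in the controls. The log2 fold change stayed between -2.49 and -2.12 when each pool was left out. The edgeR adjusted p was 0.019 without control pool 1, 0.111 and 0.125 without control pools 2 and 3, and 0.177, 0.243 and 0.177 without heat pools 1, 2 and 3. Over all alternatives it ran from 2.97e-05 (DESeq2) to 0.243.

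The gene sema3fa lies on the minus strand of scaffold NW_024043372.1, from 19453149 to 19507382 in the coordinates of the deposited table, 71.3 kb from epha2a on the other strand. That neighbour, an ephrin-A receptor of epithelia, read 37.9, 31.5 and 23.4 CPM in the controls and 23.0, 24.2 and 28.4 in the heat pools, which overlap. Further genes carry the product name semaphorin-3F-like under locus numbers and are not among the 78. LOC119909723 read 2.83, 2.39 and 2.96 CPM against 0.52, 0.833 and 1.54 at 34 °C, with no overlap and a log2 fold change of -1.46 (edgeR adjusted p = 0.221). The groups did not overlap in LOC119905222 either, at 5.62, 3.8 and 3.46 CPM against 1.04, 2.68 and 2.57 (log2 fold change -1.01, edgeR adjusted p = 0.329). The sources used here do not say how reads were split between such related copies.

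Of the other class 3 semaphorins, sema3c, which in mammals guides neural crest cells of the outflow tract, read 16.2, 14.3 and 14.6 CPM in the controls and 5.59, 10.9 and 10.2 at 34 °C. Every heat pool was under every control, at a log2 fold change of -0.75 that did not pass (edgeR adjusted p = 0.298). The copies of semaphorin 3A, the prototype repellent, were lower in all heat pools too: sema3aa read 6.01, 4.71 and 5.02 CPM against 0.779, 3.09 and 3.27, and sema3ab lay between 1.32 and 1.67 CPM against 0.52 to 1.13. Their log2 fold changes were -1.10 and -0.85. The most abundant class 3 member, sema3b, read 40.9, 33.8 and 39.4 CPM against 46.8, 38.4 and 43.1, with overlapping groups and a log2 fold change of 0.17 (standard error 0.22). Its neighbour sema3bl, 15.1 kb away on the other strand, was lower in all heat pools (6.63 to 7.61 CPM against 8.07 to 18.1), and its highest value was that of control pool 1.

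**Figure D3:**
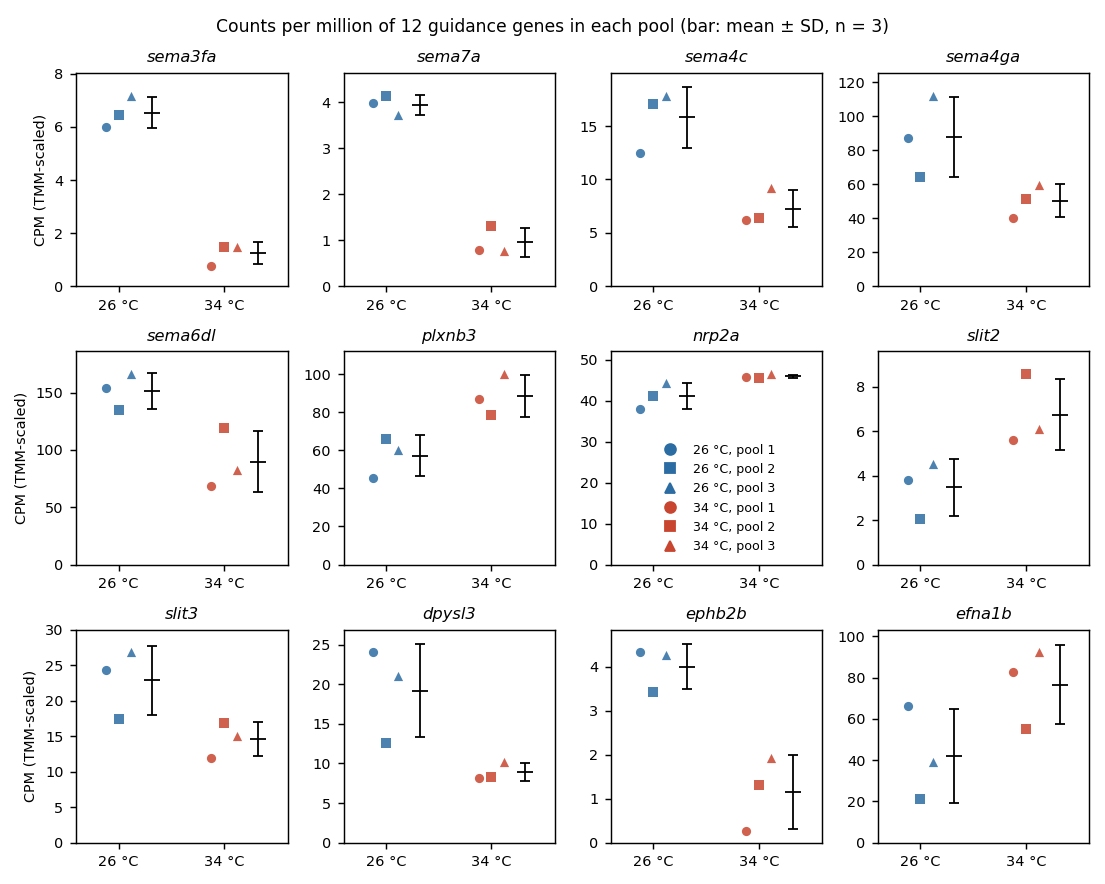
CPM of 12 guidance genes in each pool, with group mean and SD (n = 3), from 0 upward on each axis. The 2 groups are far apart in sema3fa (6.54 against 1.25) and sema7a (3.94 against 0.953), and close together in nrp2a, while in efna1b a control pool lies among the heat pools.

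Semaphorins of classes 4 to 7 are mostly held on the cell surface. Semaphorin 7A, anchored in the membrane by a lipid, acts on plexin C1 and on integrins and is known from axon growth and immune cells. CPM of sema7a was 3.99, 4.13 and 3.71 in the control pools and 0.779, 1.31 and 0.77 in the heat pools. The heat values were a fraction of each control, with no overlap. The means were 3.94 ± 0.215 and 0.953 ± 0.308 CPM (SD, n = 3 each), and the log2 fold change of -2.02 (standard error 0.43) missed the threshold (edgeR adjusted p = 0.0742). The heat counts were 6, 22 and 12 reads. A more abundant gene named semaphorin-7A-like, LOC119889803 (10.6 TPM against 1.09 for sema7a), read 22.8, 28.8 and 19.1 CPM in the controls and 24.6, 17.7 and 19.9 in the heat pools. Its groups overlapped (log2 fold change -0.19, standard error 0.27). The receptor plxnc1 lay at 34.0, 48.6 and 39.2 CPM against 33.0, 49.4 and 42.2, with overlapping groups.

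Among the class 4 members, sema4c, a ligand of plexin B2, read 12.5, 17.1 and 17.8 CPM in the controls and 6.24, 6.36 and 9.24 at 34 °C. The groups did not overlap (log2 fold change -1.11, standard error 0.30, edgeR adjusted p = 0.129). The most abundant class 4 gene, sema4ga, read 87.3, 64.5 and 112 CPM against 40.3, 51.6 and 59.5, again without overlap (log2 fold change -0.80, standard error 0.29, edgeR adjusted p = 0.227). The gene sema4d, whose mammalian counterpart is the ligand of plexin B1, lay at 27.6, 43.1 and 32.9 CPM against 35.5, 34.1 and 41.7. Its groups overlapped, and an uncharacterised opposite-strand gene, LOC119914154, covers all 36548 bp of it, so its reads may not be its own. The lowly expressed sema4ab was below the controls in all heat pools (0.52 to 1.07 CPM against 1.32 to 2.57), while sema4e, sema4f and sema4gb overlapped between groups.

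The class 6 semaphorins, transmembrane ligands of plexin A receptors, include the most abundant semaphorin of the intestine. CPM of sema6dl was 154, 135 and 166 in the controls and 68.2, 119 and 82.4 in the heat pools. All heat pools were lower, and heat pool 2 came nearest to the controls (log2 fold change -0.76, standard error 0.29, edgeR adjusted p = 0.247). Values of sema6a were 16.2, 16.9 and 20.9 CPM against 8.44, 12.7 and 13.1, also without overlap (log2 fold change -0.65). In sema6e, control pool 1 read 13.3 CPM beside 23.1 and 36.3 in its group, level with the heat pools at 13.4, 13.9 and 13.5. Its log2 fold change was -0.83 with all pools and -1.12 without control pool 1. Class 5 went the other way in sign without passing: sema5a and sema5ba had log2 fold changes of 0.86 and 0.62, with standard errors of 0.52 and 0.46, and both overlapped between groups.

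Teleost fish carry many genes as a pair of copies from an ancient genome duplication, named here by a final a or b. Both copies of semaphorin 4B were well expressed, at mean levels of 9.36 TPM (sema4ba) and 7.87 TPM (sema4bb), and they lay on opposite sides of their controls at 34 °C. CPM of sema4ba was 26.3, 45.4 and 27.4 in the controls and 15.2, 13.7 and 19.9 in the heat pools. CPM of sema4bb was 14.8, 14.1 and 19.4 in the controls and 30.4, 41.0 and 38.2 in the heat pools. Neither pair of groups overlapped. Means of sema4ba were 33.0 ± 10.7 and 16.3 ± 3.21 CPM (log2 fold change -1.02, standard error 0.31, edgeR adjusted p = 0.16). Means of sema4bb were 16.1 ± 2.91 and 36.6 ± 5.51 CPM, a 2.27-fold higher mean at 34 °C (log2 fold change 1.19, standard error 0.26, edgeR adjusted p = 0.0772). Neither copy passed the threshold in edgeR with all pools. Scaled by length, sema4ba stood at 7.81, 19.7 and 10.1 TPM and sema4bb at 3.46, 4.79 and 5.65 in the controls, while in the heat pools sema4ba stood at 4.24, 5.79 and 8.57 TPM and sema4bb at 6.69, 13.7 and 13. Thus sema4ba was the higher copy in each control pool and sema4bb in each heat pool. The copies sit on different scaffolds, sema4ba on the plus strand of NW_024044570.1 from 18849511 to 18904187 and sema4bb on the plus strand of NW_024044348.1 from 28009564 to 28071523.

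Of the 7 such pairs, 6 had both copies tested. The fold changes of 5 pairs had the same sign, and semaphorin 4B was the pair with opposite signs. Levels within these 7 pairs differed between 1.19-fold in semaphorin 4B and 132-fold in netrin 1, by mean TPM. In between were sema4ga over sema4gb (12.8-fold), efna1b over efna1a (6.12-fold), sema3aa over sema3ab (3.76-fold), efna3b over efna3a (3.3-fold) and epha2a over epha2b (1.94-fold). The symbols unc5a and unc5b, which also differ in the last letter, name separate vertebrate genes and were left out of the pairs. The pairs were matched by the final letter, so plxnb2a.1 and plxnb2b are not among them. Those 2 stood at 26.0 and 27.0 TPM, with log2 fold changes of -0.14 and -0.42.

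**Figure D4:**
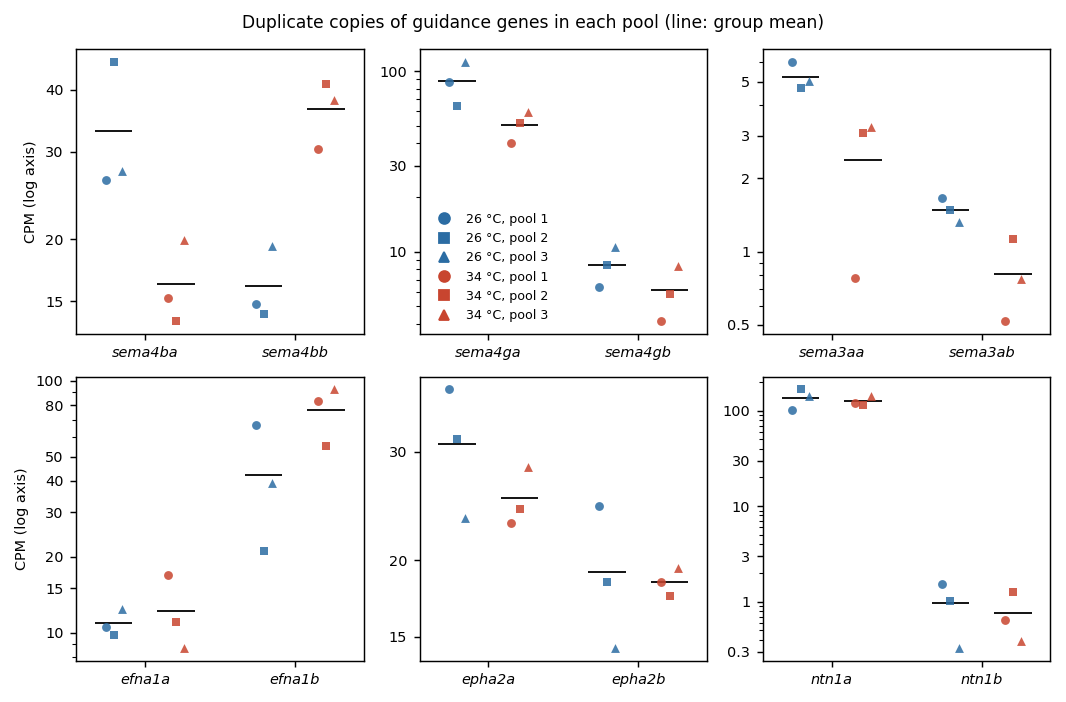
CPM (log axes) of both copies of 6 duplicated guidance genes in every pool; lines are group means. The 2 copies of semaphorin 4B exchange their order between 26 °C and 34 °C, while ntn1a stays far above ntn1b in all 6 pools.

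The 10 plexins, the transmembrane receptors of the semaphorins, were all tested, and their log2 fold changes ran from -0.43 to 0.63 with a median of -0.21. None passed (edgeR). At an unadjusted p under 0.05 there was 1, plxnb3, which was higher, as were 6.86% of all tested genes. CPM of plxnb3 was 45.3, 65.9 and 60.2 in the controls and 87.0, 78.3 and 99.9 in the heat pools. All heat pools were higher (log2 fold change 0.63, standard error 0.25, edgeR adjusted p = 0.264). The most abundant plexin, plxna1b, lay at 109, 136 and 146 CPM against 131, 156 and 141, with overlap. In plxnb2b, whose mammalian counterpart is the receptor of semaphorin 4C, the values were 147, 148 and 131 CPM against 86.8, 119 and 112. The heat pools were the lower ones there, by -0.42 on the log2 scale (edgeR adjusted p = 0.452). The duplicate-like gene plxnb2a.1 overlapped between groups (95.9 to 125 CPM against 88.0 to 114). For plxnd1, the endothelial receptor of semaphorin 3E, the controls were at 40.3, 66.1 and 64.1 CPM and the heat pools at 42.0, 44.4 and 39.8. Control pool 1 sat among the heat pools, and without it the log2 fold change was -0.62 rather than -0.43.

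The 2 neuropilins found by symbol, co-receptors of class 3 semaphorins and of VEGF, did not pass. CPM of nrp2a, the co-receptor of semaphorin 3F in mammals, was 38.0, 41.2 and 44.3 in the controls and 45.7, 45.6 and 46.4 in the heat pools. The heat pools were nearly equal and just above the highest control (log2 fold change 0.16, standard error 0.21, edgeR adjusted p = 0.748). In nrp1a the controls lay at 7.34 to 9.8 CPM and the heat pools at 4.16 to 8.03, with overlap and a log2 fold change of -0.52 (standard error 0.35).

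Slits are large secreted repellents. CPM of slit3, the most abundant of the 3, was 24.3, 17.5 and 26.8 in the controls and 12, 16.8 and 15.1 in the heat pools. CPM of slit2 was 3.82, 2.06 and 4.53 in the controls and 5.59, 8.56 and 6.09 in the heat pools. These 2 ligands lay on opposite sides, with no overlap in either gene, and neither passed the threshold (log2 fold changes of -0.64 and 0.96, standard errors of 0.28 and 0.40, edgeR adjusted p = 0.302 and 0.283). The third slit, slit1b, overlapped between groups, at a log2 fold change of -0.32. Of the 4 robo receptors, robo1 read 14.9, 25.1 and 25.4 CPM against 9.87, 17.1 and 20, with overlap (log2 fold change -0.47). In robo3 the heat pools lay above the controls, at 5.72, 6.72 and 5.45 CPM against 3.0, 4.77 and 4.94 (log2 fold change 0.50, edgeR adjusted p = 0.516). The endothelial receptor robo4, 9.82 kb from robo3 on the other strand, read 3.0, 4.0 and 3.21 CPM against 1.43, 3.98 and 0.898.

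The netrins lay close to their controls. CPM of ntn4, a netrin of basement membranes, was 79.1, 94.7 and 86.4 in the controls and 90.9, 86.9 and 85.2 in the heat pools. CPM of ntn1a was 102, 167 and 142 in the controls and 121, 116 and 141 in the heat pools. Both genes overlapped between groups, and their log2 fold changes were 0.02 and -0.12 with standard errors of 0.22 and 0.28. The 4 tested netrins lay between -0.36 and 0.19. Netrin 1 acts through DCC, which was scarce and uneven: dcc read 0.729, 5.03 and 6.84 CPM in the controls and 0.26, 3.27 and 4.87 in the heat pools. The lowest pool of each temperature was pool 1, at 17 and 2 reads, and the spread within each group exceeded the difference between groups (log2 fold change -0.53, standard error 0.96). Of the UNC5 receptors, which turn the response to netrin into repulsion, unc5a lay at 3.3 to 5.85 CPM against 3.25 to 4.7, and unc5c and unc5db stayed under 4 CPM in every pool. For unc50, the Golgi gene, the controls were at 16.9, 6.19 and 3.87 CPM and the heat pools at 4.42, 8.62 and 8.21, and its log2 fold change was -0.34 with all pools and 0.51 without control pool 1.

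Ephrins of class A are tied to the membrane by a lipid anchor and those of class B cross it. CPM of efna1b, in mammals an ephrin of epithelium and endothelium induced by TNF, was 66.4, 21.1 and 39.2 in the controls and 82.8, 55.0 and 92.2 in the heat pools. Control pool 1 lay inside the range of the heat pools, so the groups overlapped (log2 fold change 0.86, standard error 0.42, edgeR adjusted p = 0.365). Without control pool 1 the log2 fold change was 1.36 (edgeR adjusted p = 0.0556). In efnb1 control pool 1 was again the highest, at 67.7 CPM beside 33.3 and 29.0, and the heat pools read 40.8, 52.5 and 32.8. Its log2 fold change was -0.05 with all pools and 0.44 without control pool 1. A gene under a locus number named ephrin-B1-like, LOC119884276, had a mean of 58.9 TPM. Its groups overlapped (log2 fold change -0.06, standard error 0.30). The remaining tested ephrins, efna1a, efna3b, efna5b, efnb2a and efnb3b, had log2 fold changes of -0.79 to 0.16, and among them the groups were separate in efna5b (9.88 to 12.9 CPM against 7.06 to 9.35).

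Among the Eph receptors found by symbol, those of class A were the more abundant. LOC119914603, named ephrin type-A receptor 5, had a higher mean than any of them, at 39.4 TPM. It read 38.7, 77.4 and 73.8 CPM in the controls and 99.5, 95.6 and 80.4 in the heat pools. All its heat pools were above all controls, as in 11.5% of all tested genes (log2 fold change 0.54, standard error 0.31, edgeR adjusted p = 0.444). CPM of epha4l was 109, 115 and 95.5 in the controls and 74.3, 85.9 and 85 in the heat pools. The heat pools were lower without overlap, by a log2 fold change of -0.39 (standard error 0.23, edgeR adjusted p = 0.457). The 4 EphB receptors found by symbol were all under 9 CPM, and all had log2 fold changes of -1.01 or lower. None of the 4 passed the threshold (edgeR), and 2 were lower at an unadjusted p under 0.05, where 9.78% of all tested genes were. LOC119902161, named ephrin type-B receptor 1-B-like, had a mean of 2.56 TPM and overlapping groups (log2 fold change -0.44, standard error 0.39, edgeR adjusted p = 0.617). CPM of ephb4a, in mammals a receptor of veins, was 8.28, 5.67 and 6.75 in the controls and 3.64, 3.27 and 3.4 in the heat pools. CPM of ephb2b, in mammals a receptor of intestinal crypts, was 4.33, 3.42 and 4.28 in the controls and 0.26, 1.31 and 1.92 in the heat pools. Both were lower in every heat pool (log2 fold changes of -1.01 and -1.72, standard errors of 0.32 and 0.61, edgeR adjusted p = 0.182 and 0.215). In ephb2b the heat counts were 2, 22 and 30 reads. The kinase-inactive receptor ephb6 was at 0 reads in heat pool 1 and at 2.08 and 1.86 CPM in heat pools 2 and 3, just under the lowest control (2.19 CPM). The last of the 4, ephb3a, overlapped between groups below 2 CPM.

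Of the CRMP and DPYSL genes, dpysl3 was the 1 expressed above 1 TPM. Its product binds tubulin and actin, and in mammals it marks young neurons. CPM of dpysl3 was 24, 12.6 and 21.0 in the controls and 8.18, 8.27 and 10.2 in the heat pools. The heat pools lay close together and below all controls (log2 fold change -1.11, standard error 0.32, edgeR adjusted p = 0.144). The other tested members, dpysl2a and dpysl5a, were under 2 CPM in every pool and overlapped.

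Part of the spread lay between pools of 1 temperature. Control pool 1 exceeded the mean of the other 2 controls by more than 2-fold in 8 tested members and was under 0.5 times it in 6. Its median ratio to them was 0.883 over the members and 1.04 over all tested genes. It was low in dcc (0.123 of the others' mean), plxna2 (0.392), sema6e (0.449) and plxna4 (0.483) and high in efna1b (2.2-fold), efnb1 (2.17-fold), efnb2a (2.06-fold) and sema3bl (2.24-fold). Heat pool 1, the shallowest library, had a median ratio of 0.799 to the other heat pools over the members and 0.952 over all tested genes. It was above 2-fold in 1 member and under 0.5 times in 7. When each pool was left out in turn, 55 of the 71 log2 fold changes kept their sign and 16 did not.

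**Figure D5:**
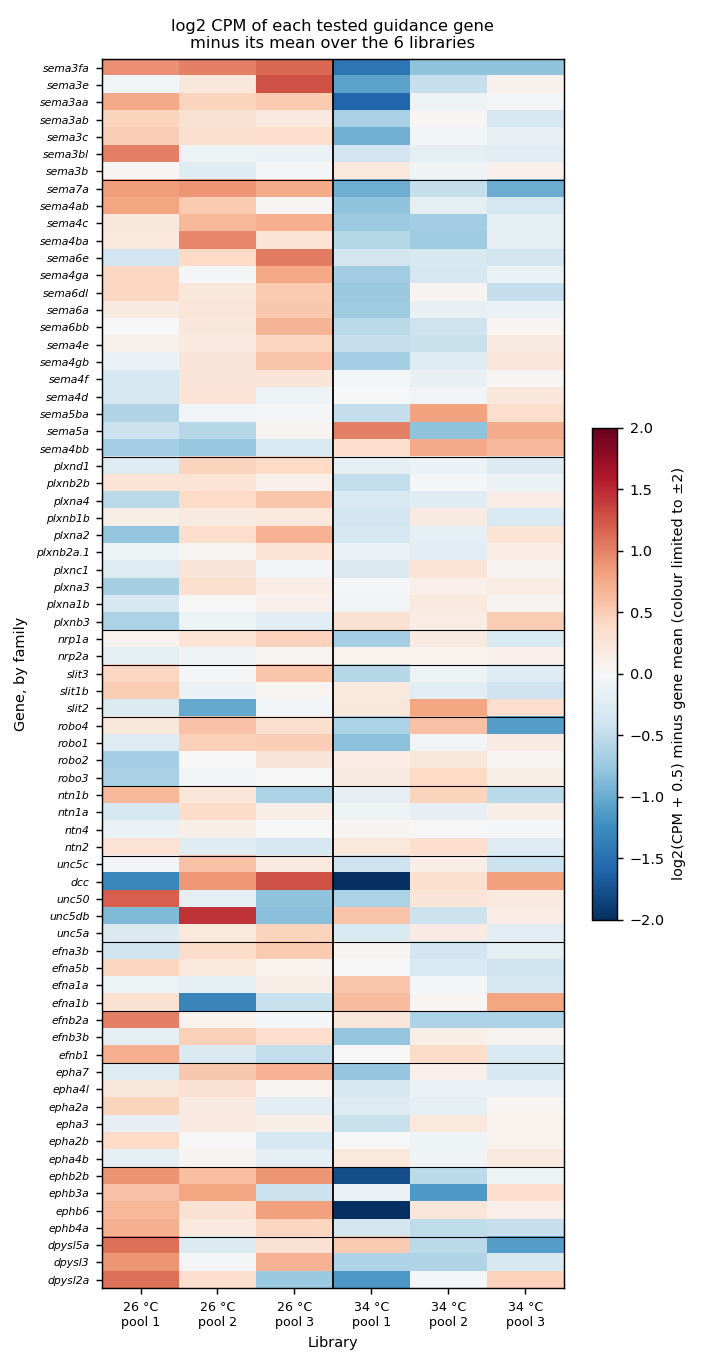
Deviation of log2(CPM + 0.5) from each gene's mean over the 6 pools, for the tested guidance genes grouped by family, with colours limited at 2 in either direction. Control pool 1 differs from the other 2 controls in many genes (dcc low, efnb1 high), and the rows of sema3fa and sema7a separate the temperatures in all pools.

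Marker genes of the cell types of the gut wall were read in the same comparison, in which 57.9% of all tested genes were below 0. Smooth muscle was the list with members past the threshold. Of its 11 tested markers, 11 had a log2 fold change below 0 (median -1.16). As lower 3 passed (edgeR), where 0.394% of all tested genes did. The matched marker that was not tested, desma, went the other way at low counts. It read 0.172, 0 and 0.165 CPM in the controls and 0.52, 1.37 and 2.37 in the heat pools. The summed level of the 12 matched genes was 6629 to 14482 CPM in the controls and 5538 to 6233 in the heat pools, without overlap. Its largest part was acta2, which overlapped between groups (2686 to 7559 CPM against 2515 to 3003), as did tpm2. In the other tested markers of the list all heat pools were below all controls, as in 14.4% of all tested genes. The 8 tested fibroblast markers were all below 0 with none past the threshold (median -0.68, summed level 2766 to 5971 CPM against 1579 to 2957), and so were the 4 tested leukocyte markers (median -0.47, 254 to 279 CPM against 182 to 217). Most of the leukocyte sum was ptprc (215 to 221 CPM against 152 to 183). Of the other leukocyte markers, cd79a and csf1rb overlapped between groups and lck did not. Markers of enteric neurons, the cells most tied to guidance genes, were below 0 in 12 of 15 (median -0.31). Their sums overlapped, at 82.7 to 164 CPM and 108 to 120.4, and took in syt12, which matched by its letters. The neuronal enzyme gene chata was at 0 in 2 controls. Against the list's median, uchl1 had a log2 fold change of 0.83 (edgeR adjusted p = 0.358). Without control pool 1 it was 1.32 (edgeR adjusted p = 0.0453), where 4.61% of all tested genes passed as higher. For endothelium 6 of 8 were below 0 (median -0.28, 153 to 171 CPM against 133 to 151). For epithelium 3 of 4 were below 0 (median -0.28), with sums of 338 to 1431 CPM against 531 to 679.8. Of the 4, epcam (89.1 to 381 CPM over all pools), cdx1b (77.9 to 126) and fabp2 (141 to 899) are genes of intestinal epithelium and fit the labelled tissue, while cdh11 is a mesenchymal cadherin that matched by its letters. The count, median and sums include cdh11, whose log2 fold change was -1.56. Those of epcam, fabp2 and cdx1b were -0.03, -0.53 and 0.38. In cdx1b every heat pool was above every control, as in 11.5% of all tested genes. The epithelial sum was highest in control pool 1. The glial list was matched by 5 genes of 3 families, with 3 tested and 1 below 0, and mbpa at 0 in all pools. Their summed level was 179.9 to 309.7 CPM in the controls and 86.3 to 121 in the heat pools, and nearly all of it was erbb3a (175 to 298 CPM against 76.1 to 112). The other tested glial genes, erbb3b and plp1a, had log2 fold changes of 0.11 and 0.34. The part of these marker values in the values of the guidance genes was not tested.

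Other genes of the pathway were read from a list of mostly cytoplasmic and membrane partners. It took in dock11 and sdcbp2, which matched dock1 and sdcbp by an added final digit. Of 69 such genes, 63 were tested, 41 lay below 0 on the log2 fold change and 22 lay above, 0 passed the threshold (edgeR), and at an unadjusted p under 0.05 there were 13 lower and 2 higher, where 9.78% and 6.86% of all tested genes were. The median was -0.22. Without control pool 1, 6 of the list passed as lower (arhgef11, evlb, mical1, ptprsa, tenm3 and vaspb) and 3 as higher (cntn2, fes and vav2), where 4.11% and 4.61% of all tested genes passed. The smallest p belonged to evlb, of the Ena/VASP family of actin regulators, at 6.65, 8.57 and 6.59 CPM against 1.69, 1.9 and 2.24 (log2 fold change -1.89, standard error 0.34, edgeR adjusted p = 0.0522). The groups of evlb were far apart. In mical1, an actin oxidase bound by plexin A, they did not overlap but came close, at 63.8, 91.6 and 107 CPM against 32.1, 40.4 and 58.6 (log2 fold change -1.0, edgeR adjusted p = 0.183). The genes tenm3, vaspb and l1cama had a smaller p than mical1 and were also lower in every heat pool, as were 14.4% of all tested genes. The 2 that were higher at an unadjusted p under 0.05 were vav2 and fes, and neither passed. CPM of vav2 was 54.7, 54.9 and 51.9 against 90.9, 101 and 78.2 (log2 fold change 0.74, edgeR adjusted p = 0.165). The values of fes, a kinase bound by plexin A1 and CRMP proteins, were 9.27, 25.1 and 30.3 CPM against 54.3, 48.4 and 48.2. In the deposited annotation 71 of the 78 members carry the KEGG term for axon guidance, as do 222 other genes. Of these others 175 were tested and 115 were below 0, with a median of -0.24. As higher 0 passed and as lower 1, where 0.59% and 0.394% of all tested genes did. That one was ilk, the integrin-linked kinase, at 24.5, 16.4 and 22.6 CPM against 4.16, 6.54 and 6.61 (log2 fold change -1.87, edgeR adjusted p = 0.0451), named here after its values were seen.

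Genes of the same families under locus numbers were counted apart. The search of product names found 48, of which 9 belong to other families (complexins, neuropilin and tolloid-like genes and plexin domain-containing genes). The other 39 had 24 tested, 16 below 0, a median of -0.19 and 0 past the threshold (edgeR). At an unadjusted p under 0.05, 1 was lower and 1 higher, where 9.78% and 6.86% of all tested genes were. Without control pool 1, 1 of them passed as higher, where 4.61% of all tested genes did. It was LOC119881996 (neuropilin-1a), at a log2 fold change of 0.82 (edgeR adjusted p = 0.0497). With all pools its log2 fold change was 0.50 (standard error 0.30, edgeR adjusted p = 0.452), and its groups overlapped.

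The lncRNA table gave another readout at the same loci. It held 24 transcripts at 11 members, of which 20 overlapped 8 members and 4 lay within 5 kb of 1. Of the 9 that were tested, 0 passed the threshold and 0 had an unadjusted p under 0.05 (edgeR), and their adjusted p lay between 0.446 and 0.978. Of all 1734 tested lncRNA transcripts, 0% passed the adjusted threshold and 14.5% had an unadjusted p under 0.05. Of the overlapping transcripts, 9 lay at efna1b on its own strand. Their summed level was 3.39, 9.16 and 20.6 CPM in the controls and 28.2, 20.3 and 19.8 in the heat pools. Different transcripts made up these sums. MSTRG.5449.9 gave 227 of the 250 reads in control pool 3 and 0 in every other pool. MSTRG.5449.6 gave 146 of 217, 329 of 341 and 275 of 308 reads in the heat pools. It also gave 125 of the 142 reads in control pool 2, and 0 in control pools 1 and 3. Added to efna1b, the locus read 69.8, 30.3 and 59.8 CPM against 111, 75.2 and 112. All heat pools were then above all controls, as in 11.5% of all tested genes, and such a sum was made at this locus only. The assignment of reads between efna1b and these same-strand transcripts is uncertain.

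Several members are neighbours in the genome. In 8 cases adjacent members lay within 100 kb of each other: efna1b with efna3b (33.7 kb), efna1a with efna3a (38.6 kb), sema3b with sema3bl, robo1 with robo2 (36.2 kb), robo3 with robo4, sema3fa with epha2a, sema3ab with sema3e (9.23 kb) and sema3ab with sema3d (46.1 kb). At the first of them efna1b stood at 53.4 TPM and efna3b at 0.541 TPM, while robo3 and robo4 stood at 1.86 and 1.16 TPM. Besides sema4d, 7 members overlapped another annotated gene (efna5b, plxna4, plxnb1b, plxnc1, sema5ba and unc50 on the opposite strand and unc5db on the same strand). The sources used here name no strand setting for the counting, so reads of these genes and their partners may be mixed.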

How the data were processed

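Total RNA of 6 intestine pools, 3 at 26 °C and 3 at 34 °C, was sequenced after preparation with a total RNA library kit, per the labels' protocols. The authors deposited whole-number counts and TPM values per gene and per lncRNA transcript, per the file headers. Tools listed in the submitters' processing notes are StringTie 1.3.3, HISAT2 2.1.0 and DESeq, with no role stated. Genome build and strand setting are not given in the sources used here, and coordinates are those of the deposited tables. Of 38342 gene rows, 2488 assembled genes repeated the summed counts of 3399 lncRNA transcripts and were taken out, leaving 35854 genes.

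Counts were tested with edgeR 4.0.16 in R 4.3.3 by the quasi-likelihood F test, on genes and lncRNA transcripts in 1 fit, after a filter (minimum count 10, minimum total 15) and TMM scaling. Benjamini-Hochberg adjustment ran over all tested genes (or all lncRNA transcripts), with a threshold of 0.05. The standard error of a log2 fold change was taken from the F statistic. Simulated counts for this heat comparison (20326 genes) had 50 genes changed at each size, and edgeR found 0% of those changed 2-fold, 50% of those changed 4-fold and 92% of those changed 8-fold. The p-values measure the spread between pools, which were separate fish.

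Alternatives were upper-quartile and RLE scaling, DESeq2 1.42.0, no filter, each pool left out, a replicate block, genes without lncRNA transcripts, and limma 3.58.1 on log2(TPM + 1) and log2(TPM + 0.1) at a mean TPM of at least 0.5 and on log2(TPM + 1) without that filter. The voom fit and the removal of other families from the locus-number list were chosen after seeing the data. The members and all lists were chosen with earlier results of these data known. Named members are those past the threshold and, in each family, the 2 of highest mean TPM and the 2 of smallest p. Other members are named where a count or a pair is described, after their values were seen. Genes of the pathway list described singly were also chosen after their values were seen.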

Additional observations from a re-analysis of the deposited data

How the results depend on the processing

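With all pools and edgeR, 1 member passed as lower, 0 as higher, and the median log2 fold change was -0.42. The number lower was 0 with a replicate block, 3 with DESeq2, 0 in each of the 3 limma fits on TPM and 5 with voom. The number higher was 1 with DESeq2 and 2 with voom. With each pool left out, the number lower ran from 0 to 6, the number higher from 0 to 1 and the median from -0.48 to -0.28. The median was -0.24 over 63 members in limma on log2(TPM + 1), and -0.21 over 78 members there without a filter. Over all genes the median was -0.02 in each of these fits, against -0.12 by edgeR. Over all genes the calls were 1437 with DESeq2 and 2078 with voom, against 200 by edgeR, and 0, 10, 1, 0 and 0 by edgeR without control pools 2 and 3 and heat pools 1, 2 and 3.

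The labels do not say whether the replicate numbers pair the pools. Same-numbered pools deviated from their groups with correlations of -0.0112, -0.0118 and 0.0396, and differently numbered pools with -0.0387 to 0.0395. With 3 pools per group, such correlations cannot decide whether pools were paired. The replicate block called 0 genes in all, and sema3fa had a log2 fold change of -2.40 there (edgeR adjusted p = 0.127).

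Several named members turned sign, and the cause was not tested. For efnb1 the log2 fold change was 0.02 with upper-quartile scaling, 0.04 with the block, 0.00 without lncRNA transcripts, 0.06 in the 3 limma fits and 0.35 with voom. For epha2b it was 0.01 in the 3 limma fits and 0.10 with voom, and for ntn4 -0.02 without a filter and -0.06 with voom. With voom plxna3 was at -0.11, plxnc1 at -0.04, sema4d at -0.04 and unc50 at 0.44. With each pool left out, the 16 log2 fold changes that turned ran from -1.16 to 0.03 (dcc), -1.56 to 0.09 (dpysl2a), -0.13 to 0.35 (efna1a), -0.25 to 0.44 (efnb1), -0.18 to 0.18 (epha2b), -0.28 to 0.04 (ntn1a), -0.96 to 0.17 (ntn1b), -0.03 to 0.08 (ntn4), -0.60 to 0.07 (plxna2), -0.15 to 0.28 (plxna3), -0.25 to 0.01 (plxnb2a.1), -0.11 to 0.19 (plxnc1), -0.02 to 0.29 (sema4d), -0.66 to 0.51 (unc50), -0.24 to 0.11 (epha3) and -0.78 to 1.81 (unc5db). Some values rest on few reads: dcc had 2 in heat pool 1 and 17 in control pool 1, the deepest library.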
